A study of Caenorhabditis elegans with 2 samples.

Results

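The regions described here are 237 places inside Caenorhabditis elegans protein-coding genes but outside annotated exons. There, chromatin immunoprecipitation with sequencing (ChIP-seq) of GFP-tagged T23F11.4 gave a high signal far from any annotated coding start. The regions are called intronic, though a coding transcript had an intron at the summit for only 234 of them. They were chosen from the 29999 nuclear regions of the list that the authors called on both replicates pooled. A region was taken when its pooled signal was at least 80 and its summit lay over 1000 bp from every protein-coding transcript start. The summit also had to lie inside a protein-coding gene, outside every annotated exon, and over 500 bp from any tRNA, snoRNA, snRNA, rRNA, miRNA or ncRNA gene. Of the 29999 regions, 2263 reached a signal of 80 (7.54%). These 2263 divided into 837 near a coding start, 755 near an RNA gene, 299 between genes, 135 in exons and the 237 intronic regions. Another 4516 regions met every positional condition with a signal under 80 and are called the weaker intronic regions. Signal and position chose the 237 regions, so those values are given as a description only.

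The study has 1 group of 2 biological replicates. Both are whole late embryos of strain OP709, with the label's age of 4 hour, pooled males and females, synchronised by egg bleaching. The animals carry the mutation unc-119(tm4063) and the transgene wgIs709, which holds T23F11.4::TY1::EGFP::3xFLAG together with unc-119(+). The tagged protein thus came from a transgene of 1 stable line. Chromatin was sonicated and precipitated with an antibody to GFP. A matched control experiment was not analysed here, so no region was set against untagged or input chromatin.

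Introns are removed from the transcript, but the DNA that encodes them can hold enhancers, alternative promoters and whole small genes. In the compact C. elegans genome most introns are short, and long introns are common in genes that regulate development and the nervous system. RNA polymerase III genes such as tRNA genes carry their promoter inside the transcribed sequence, as an A box and a B box that the factor TFIIIC binds. Degenerate copies of tRNA genes, annotated as tRNA pseudogenes, can keep these boxes. Runs of alternating G and A are another common element of animal regulatory DNA, and in Drosophila they are bound by the GAGA factor.

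Both kinds of sequence occurred at the summits of strong intronic regions. The first set of sequences shows the 3 strongest regions and the ncs-5 region, which held both boxes. Each runs 50 bp to either side of the summit, read from the RefSeq genome sequence of WBcel235 (ce11), + strand, 5′ to 3′. Capitals mark matches on either strand to the A box, to the B box core GTTCGANNC, to a relaxed B box written GTTCNANNC, or to any of the 6-mers GAGAGA, which stands for GA repeats, CACACA, which stands for CA repeats, and CGTCTC.
srt-52 chrV:53461-53561: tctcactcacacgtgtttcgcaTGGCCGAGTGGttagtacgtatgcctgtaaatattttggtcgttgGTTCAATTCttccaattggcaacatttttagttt
Y57G11C.22 chrIV:14838297-14838397: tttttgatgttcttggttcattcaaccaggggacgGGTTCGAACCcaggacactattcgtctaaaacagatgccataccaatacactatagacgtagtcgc
mom-1 chrX:6296511-6296611: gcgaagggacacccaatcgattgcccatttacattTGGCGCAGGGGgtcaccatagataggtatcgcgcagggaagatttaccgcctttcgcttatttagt
ncs-5 chrV:18825061-18825161: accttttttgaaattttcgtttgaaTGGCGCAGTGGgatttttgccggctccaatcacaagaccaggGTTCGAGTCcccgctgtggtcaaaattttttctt

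In the srt-52 window an A box match began 28 bp before the summit and a relaxed B box match began 17 bp after it, on the same strand. That spacing was close to the spacing in the ncs-5 window, where an A box began 25 bp before the summit and a full B box core 17 bp after it. The ncs-5 summit lay within 500 bp of an annotated tRNA pseudogene, and the RNA gene of the rule nearest to the srt-52 summit was 14147 bp away. The Y57G11C.22 window held a palindromic B box core that matched on both strands. The mom-1 window held an A box and no B box core. The relaxed pattern was added after the srt-52 sequence had been seen.

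The second set shows strong regions with simple repeats, which held 6-mers that were more frequent at the strong than at the weaker intronic regions. The windows are cut and marked in the same way.
Y111B2A.12 chrIII:12612698-12612798: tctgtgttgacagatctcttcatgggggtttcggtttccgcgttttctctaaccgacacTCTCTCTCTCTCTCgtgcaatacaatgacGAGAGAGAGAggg
ptp-1 chrIII:3605878-3605978: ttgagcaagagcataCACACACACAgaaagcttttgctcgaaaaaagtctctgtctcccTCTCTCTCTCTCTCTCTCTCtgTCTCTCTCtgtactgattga
sea-2 chrII:3958906-3959006: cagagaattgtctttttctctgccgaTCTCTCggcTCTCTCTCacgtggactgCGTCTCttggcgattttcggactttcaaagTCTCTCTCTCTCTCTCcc
Y105C5A.1 chrIV:15561469-15561569: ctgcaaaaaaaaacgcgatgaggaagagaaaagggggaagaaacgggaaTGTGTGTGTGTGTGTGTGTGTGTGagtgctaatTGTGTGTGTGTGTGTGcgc

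The Y111B2A.12 window held a TC run and, further to the right, a GA run, both to the same side of the summit. The ptp-1 window held a long TC run and a short CA run. The sea-2 window combined several TC runs with 1 CGTCTC match. The Y105C5A.1 window, as cut here, held 2 TG runs and no GA run. Within 100 bp of its summit, the span used for the counts below, GAGAGA did occur.

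The pooled signal of the 237 regions ran from 80.12 to 243.2 with a median of 90.18, against a median of 45.6 for the weaker intronic regions. Signal is the authors' own value for each region, and its scale differs between lists. Read depth is unknown from these files. The strongest region lay in intron 2 of srt-52, a predicted chemoreceptor gene on chromosome V. Its signal was 243.2 in the pooled list, 91.9 in replicate 1 and 151.3 in replicate 2, and it was the strongest of the 237 regions in both replicates. Y57G11C.22 on chromosome IV followed with a pooled signal of 186.6 and replicate signals of 65.2 and 118.3. The region in the last intron of mom-1, which encodes a Porcupine protein needed for Wnt secretion, had 184.7, 52.1 and 132.9. These values place all of the leading 3 regions among the top 435 of each replicate's own list.

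The hmt-1 region, in the last intron of a gene for an ABC transporter of heavy metal tolerance, had a pooled signal of 179.6 and replicate signals of 78.8 and 101.1. The Y111B2A.12 region had 161.7, but its replicate signals were 28.1 and 136.3 and its ranks 5216 and 154. The spop-1 region, in a gene for a ubiquitin ligase adaptor, had 154.6, 64.0 and 89.0. The larp-1 region, in a gene for a La-related RNA-binding protein, had 149.5, 52.1 and 97.0. The gene for the Notch pathway DNA-binding protein LAG-1 held a region in intron 1 with 140.7, 75.6 and 68.2. By rank within each replicate's own list it stood higher in replicate 1 (170) than in replicate 2 (899), as did the regions of srt-52, hmt-1, spop-1, nhr-46, sea-2 and gei-4 among the strongest 20. The nuclear hormone receptor gene nhr-3 stood higher in replicate 2, with 140.2, 35.4 and 113.3 and ranks of 1945 and 229. The gene pqn-41 held 2 of the strongest 20 (172.6 and 130.2). The others lay in nhr-46, lsy-22, lir-1, ptp-1, cdc-25.2, Y47G6A.32, sea-2, gei-4 and Y105C5A.1 and ran from 148.1 down to 125.8. All 20 were in the authors' optimal set, whose lowest pooled signal was 115.7.

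**Figure D1:**
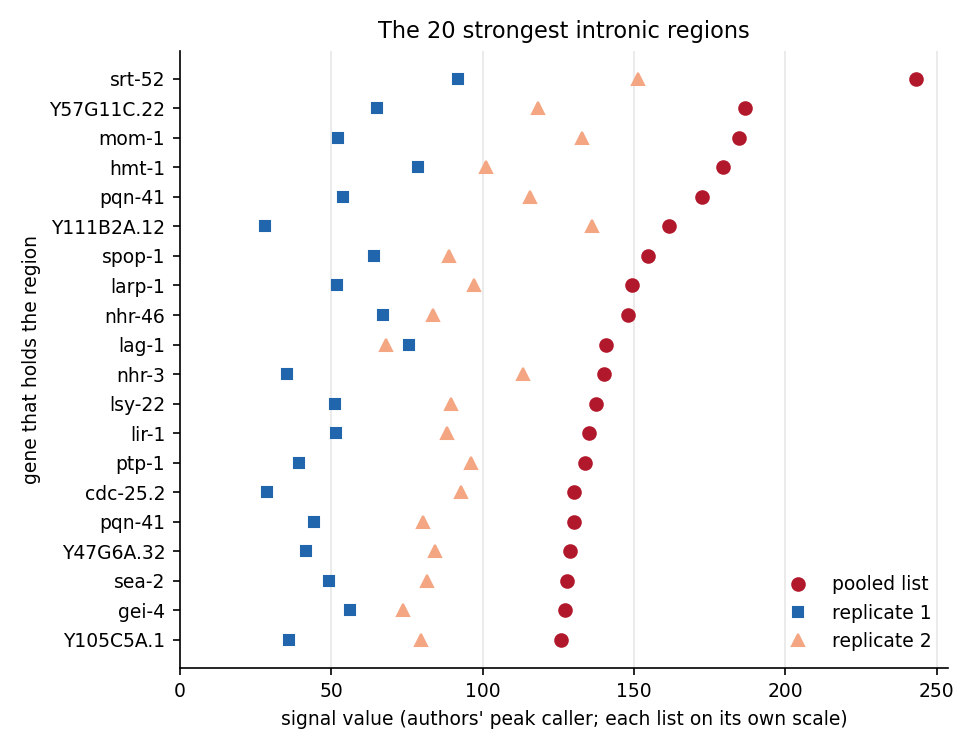
Signal value (x axis, the authors' unit, each list on its own scale) of the 20 strongest intronic regions, named by the gene that holds them (y axis), in the pooled list and in each replicate. The srt-52 region leads in all 3 lists, with 243.2, 91.9 and 151.3. The 2 replicate scales differ, so the distance between a square and a triangle is not a difference in binding.

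At the edge of the rule the values were continuous. The last 3 regions inside were in ifbp-1 (80.26), max-2 (80.15) and sax-3 (80.12). The first 3 outside were in mbk-2 (79.99), F18A11.5 (79.87) and lgc-46 (79.82).

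The authors' optimal set, made with a comparison of the replicates, held 31 of the 237 regions (13.1%, 95% Wilson interval 9.37 to 18.0, counting error only). Over all pooled regions the share was 2.12%, but the optimal set follows signal, so this excess comes with the choice of regions and says nothing further. The 31 were those with the highest pooled signal, and a place in the set did not mean similar ranks in the replicates. The Y111B2A.12 region was in it with ranks of 5216 and 154. Among other regions at 80 or more, the optimal share was 26.05% near coding starts, 44.5% near RNA genes, 14.4% between genes and 5.19% in exons.

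Each replicate's own list gives a second view. A region was called strong in a replicate when it overlapped, by at least 1 bp, one of the 2263 strongest regions of that list. Of the 237 intronic regions, 71 were strong in both replicates (30.0%, interval 24.5 to 36.1), against 4.3% of all pooled regions, a comparison that the pooled signal used for the choice also fixes. Another 42 were strong in replicate 1 only, 93 in replicate 2 only and 31 in neither. The share strong in both was 42.2% near coding starts, 61.9% near RNA genes, 33.4% between genes and 16.3% in exons. With 2 replicates these are descriptions of these libraries.

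All 237 regions overlapped some region of replicate 2, and 7 overlapped none of replicate 1. The 7 lay in usp-39, pfas-1, fkh-7, ncl-1, Y61A9LA.3, swip-10 and Y51H4A.5. Soft-masked repeats covered 98.0% of the 100 bp on each side of the summit in usp-39, 98.5% in Y61A9LA.3 and 91.0% in Y51H4A.5. They covered 31.3% in fkh-7, 18.4% in ncl-1, 10.9% in pfas-1 and 0% in swip-10. Among all 237 regions, 12 (5.06%) had at least 90% of this window covered. The part of repeats in these absences was not tested. Over the 230 regions in both lists, the signal ran from 15.2 to 91.9 in replicate 1 and from 35.8 to 151.3 in replicate 2. The ratio of replicate 2 to replicate 1 had a median of 1.74 and ran from 0.709 to 5.77. Spearman's rho between the replicates was -0.007 across these 230 regions, against 0.321 across 825 strong coding-start regions and 0.127 across 2087 weaker intronic regions. These are correlations across regions of the same pair of libraries, and choosing on the pooled signal narrows the range of both values.

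**Figure D2:**
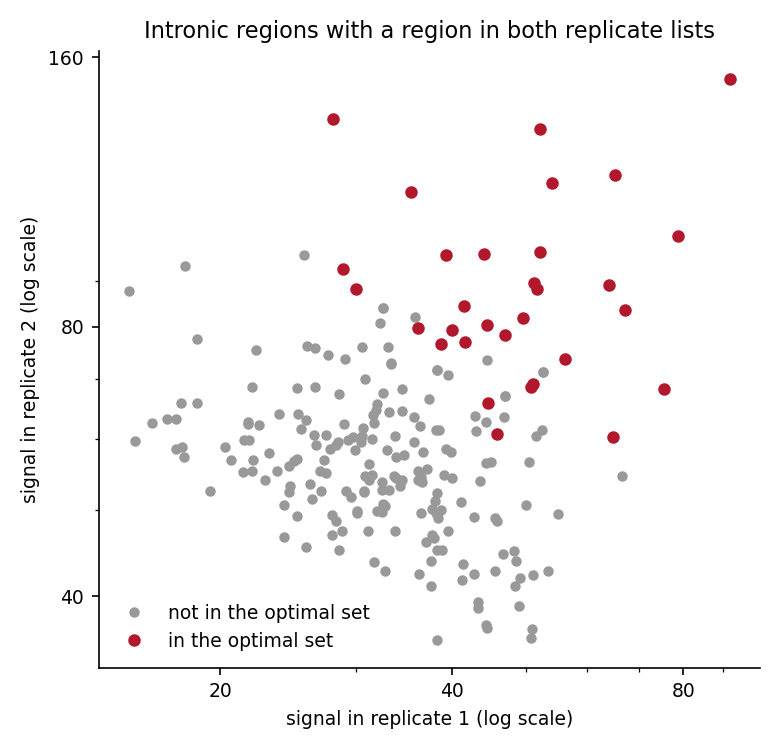
Signal in replicate 1 (x axis) and replicate 2 (y axis), both on log scales, for the 230 intronic regions with a region in both lists, with the optimal set in red. The cloud has no upward slope (Spearman's rho -0.007), and many of the optimal regions lie toward its upper right. Some are high in replicate 2 only, such as the Y111B2A.12 region at 28.1 in replicate 1 and 136.3 in replicate 2.

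The 237 regions made 230 separate places once overlapping intervals were merged. For 234 regions a coding transcript had an intron at the summit. These 234 fell in 205 genes, of which 183 held 1 region, 17 held 2, 3 held 3 and 2 held 4. Regions in 1 gene, and above all overlapping ones, are not independent of each other. The other 3 of the 237, a pair in cdc-25.2 and 1 in ncs-5, lay inside the gene where no coding transcript of it had an intron. In 3 places the summit was inside 2 genes at once. In the RefSeq gene models, 1 of the 237 summits (F31E9.3) lay within 1000 bp of an mRNA start, and 0 lay in an exon.

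The 2 genes with 4 regions were lsy-22 and egl-18. In lsy-22, which encodes a protein related to Groucho co-repressors, all 4 summits lay in the 11392 bp intron 1 and spanned 5501 bp. In the order of the genome, their pooled signals were 121.0, 111.2, 137.6 and 90.2. Their signals ran from 31.6 to 51.2 in replicate 1 and from 63.8 to 89.4 in replicate 2. In egl-18, a GATA factor gene of the epidermal seam cells, 3 summits lay in the 11092 bp intron 1 and 1 in intron 4, with pooled signals of 91.0, 120.7, 86.8 and 84.8. The summits at 120.7 and 86.8 fell on the same region of each replicate (50.9 and 69.1).

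Genes with 3 regions were pqn-41, Y111B2A.12 and Y53G8AM.8. In pqn-41, a gene for a glutamine-rich protein that acts in death of the linker cell, all 3 lay in the 10372 bp intron 14, with pooled signals of 172.6, 130.2 and 87.3. The first was at 54.1 in replicate 1 and 115.8 in replicate 2, and the third was at 53.4 and 42.7, so the order of the pooled values was that of replicate 2. Genes with a pair included those for the FOXO factor DAF-16, the ETS factor AST-1, the Period homologue LIN-42 and the splicing factor MBL-1. In those 4 genes the paired summits were at most 254 bp apart and matched the same replicate regions. The pairs in hmr-1 (cadherin), vab-10 (spectraplakin), zfh-2 (zinc finger homeodomain protein) and vab-1 (Eph receptor) were 7320 to 40825 bp apart, in different introns. The other pairs in annotated coding introns lay in nhr-46, lir-1, ptp-1, gei-4, fkh-7, H28G03.2, polg-1, egl-8 and dep-1.

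The regions sat in long introns. The exon-free interval around the summit, the stretch with no exon of any gene, had a median of 2193 bp (quartiles 892 and 4015). It was 1030 bp for the weaker intronic regions and 998 bp for all 18.16 Mb of sequence that meets the positional rule. Per Mb of that eligible sequence, regions at 80 or more numbered 5.18 in intervals of up to 500 bp, 12.1 in intervals of 1000 to 2000 bp, 26.2 in intervals of 4000 to 8000 bp and 26.3 in longer ones. The weaker regions numbered 227, 237, 299 and 376 per Mb in the same 4 classes, so their density also was highest in the longest intervals. The shortest class still held 26 of the 237 regions, among them the let-805 region in a 123 bp intron, with pooled signal 87.0. Medians of 1670 and 1695 bp were obtained when the same rule was applied to the strongest regions of a single replicate.

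**Figure D3:**
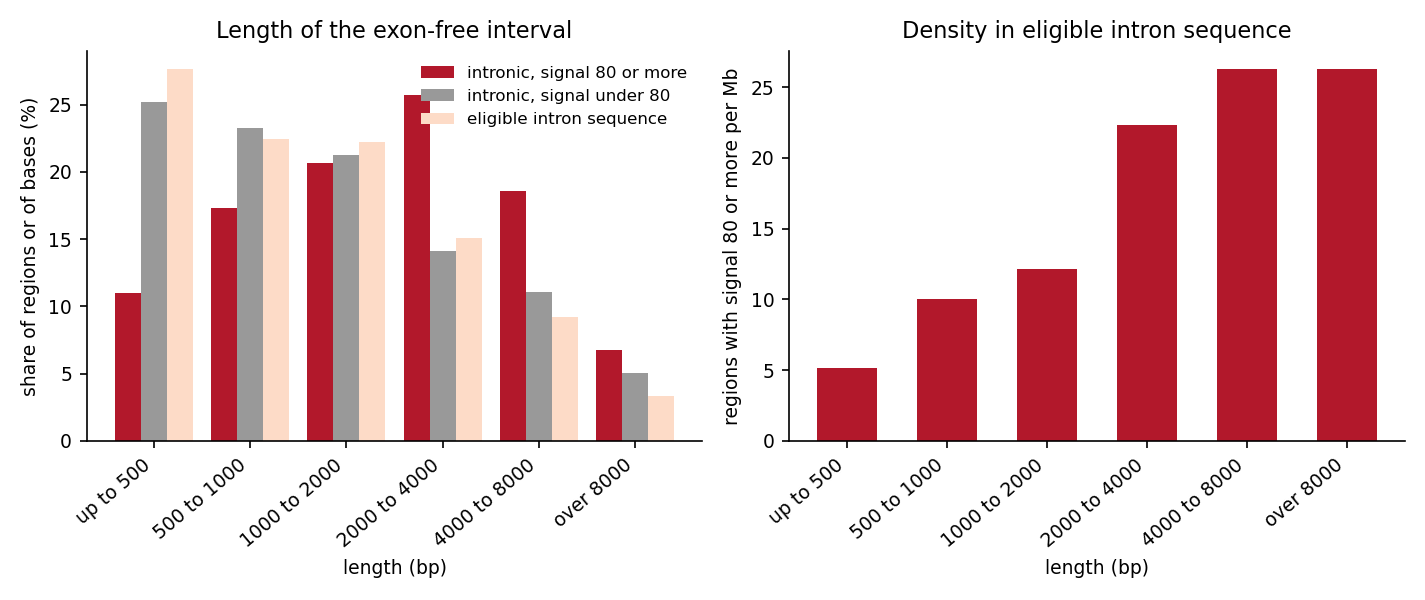
Left, share of intronic regions and of eligible intron sequence (y axis, %) by length of the exon-free interval (x axis, bp). Right, number of regions with signal 80 or more per Mb of eligible sequence in the same length classes, which rises from 5.18 in the shortest to 26.2 between 4000 and 8000 bp.

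Within their introns the summits lay at a median of 52.6% of the intron's length from its 5′ end (quartiles 29.5 and 68.4%). The weaker regions were similar, at a median fraction of 0.514 of the length (quartiles 0.270 and 0.751). In the longest coding transcript, 50 of the 237 were in the first intron (21.1%, interval 16.4 to 26.7), against 14.2% of the weaker regions. Counting the first intron of any transcript gave 75 of the 237 (31.6%), against 901 of the 4516 weaker regions. A further property was an intron outside the coding sequence, on the side of an untranslated exon, which applied to 30 regions (12.7%) and to 7.04% of the weaker ones. The nearest coding start was at a median of 2101 bp and at most 13834 bp. The next stronger pooled region lay at a median of 14961 bp, against 1884.5 bp for the weaker regions, and it was within 1000 bp for 11 of the 237. Regions chosen by high signal have few stronger ones around them, so this distance comes with the choice.

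All 6 nuclear chromosomes held such regions, with 38 on I, 44 on II, 52 on III, 32 on IV, 36 on V and 35 on X. Per Mb of eligible sequence the number ran from 10.5 on I and IV to 17.8 on II. The X chromosome held 14.8% of them (interval 10.8 to 19.8), 15.1% of the weaker regions and 15.9% of the eligible sequence. Among the strong regions near RNA genes 31.4% were on X, and the difference was not tested. In the central 50% of the autosomes lay 80 of 202 autosomal regions (39.6%), against 34.0% of the weaker ones and 45.7% of all pooled ones. Among the other strong autosomal regions the central share was 46.9% near coding starts, 43.3% between genes, 27.7% in exons and 62.5% near RNA genes. The share of eligible sequence in the centres was not taken.

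Host genes were read against lists of genes by function, which were written from textbook knowledge. The lists are not complete, so each count is of listed names only. The hosts zfh-2, fkh-7, cog-1, cfi-1 and mom-1, for example, were on none of them. Lists named 35 of the 205 host genes (17.1%) and 257 of 2404 genes that held only weaker intronic regions (10.7%). The list of developmental transcription factors, with 105 genes in the annotation, named 9 of 205 hosts (4.39%) against 36 of 2404 (1.498%). The 9 were lag-1, egl-18, daf-12, ast-1, lin-14, daf-16, lin-29, lin-11 and sma-9. Such genes have long introns, so the shares were also taken among genes with exon-free intervals over 2000 bp, where they were 8 of 98 (8.16%) and 12 of 534 (2.25%). In the gene of the steroid hormone receptor DAF-12 the region was in intron 1, with pooled signal 116.9 and replicate signals of 40.0013 and 79.3. In lin-14, which controls developmental timing, it was in intron 3, with 108.7, 32.2 and 80.7. The region in lin-29, a zinc finger factor acting later in the same pathway, had 93.2, 48.3 and 41.1. Of these 3 the lin-29 region was the highest in replicate 1 and the lowest in replicate 2.

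Listed genes of neurons and synapses were 5 of 205 hosts (2.44% against 1.21%). They were unc-43 (the kinase CaMKII, 114.0), slo-1 (a potassium channel, 98.7), unc-2 (a calcium channel, 87.9), egl-8 (phospholipase C beta, 87.0) and unc-25 (the enzyme that makes GABA, 84.0), given with the pooled signal. Listed signalling and axon guidance genes were 6 (2.93% against 1.71%), led by lit-1 (a Nemo-like kinase, 104.4), kin-1 (protein kinase A, 93.7) and ptc-3 (a Patched protein, 89.6). Listed adhesion and extracellular matrix genes were also 6 (2.93% against 1.12%), among them eat-20 at 98.3, hmr-1 at 96.1 and unc-71 at 94.0. The epidermal list had ajm-1 (a junction protein, 116.0), vab-10 (103.4) and let-805 (87.0). The chromatin list had zfp-1 (111.4) and set-25 (101.9). Chemoreceptor genes numbered 4 (1.95% against 2.58%), srt-52, srw-122 (83.7), sri-31 (81.9) and srw-84 (81.5). The muscle, intestine and collagen lists had 0 hosts among the 205, against 19, 7 and 3 of the 2404. No list was tested, and the counts of most lists are too small to rank them.

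Base composition at the summits differed from that of the intron sequence around them. The 50 bp on each side of the summit had a median GC content of 46.5% (quartiles 40.6 and 51.5), against 38.6% at the weaker intronic summits. The value was 47.5% at strong coding-start regions and 46.5% at strong intergenic ones. The mean GC content fell from 45.2% at the summit to 35.7% at 500 bp before it and 36.2% at 500 bp after it. The median share of soft-masked bases was 19.9%, against 35.3% at the weaker regions, and 23 of the 237 windows (9.70%) held a 32-mer that recurs in the nuclear genome, against 17.1%. The part of GC content in the signal was not tested.

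The 6-mer GAGAGA, counted on both strands within 100 bp of the summit, occurred in 78 of the 237 windows (32.9%, interval 27.2 to 39.1). It was in 13.0% of weaker intronic windows, in 11.2% of windows of the same size 400 bp to either side of the 237 summits, and in 16.5% of all pooled windows. Among all 2080 6-mers it had the largest excess in the 237 regions over the weaker ones, 19.96 percentage points. The gaps in the other direction reached further, to 31.6% against 63.9% for AAAATT. Strong regions elsewhere held it too, 28.8% of those near coding starts and 36.1% of those between genes. In single-replicate choices of regions the share was 24.2% and 25.5%. Of the 237 windows, 25 (10.5%) had a match within 25 bp of the summit, against 3.79% of the weaker ones. An unbroken GA run of at least 12 bases was present in 16 windows (6.75%) and in 1.196% of the weaker ones. Read on the strand of the host gene, 44 of the 78 had only TCTCTC, 23 only GAGAGA and 11 both. The split was similar for the weaker regions, at 320, 225 and 40.

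**Figure D4:**
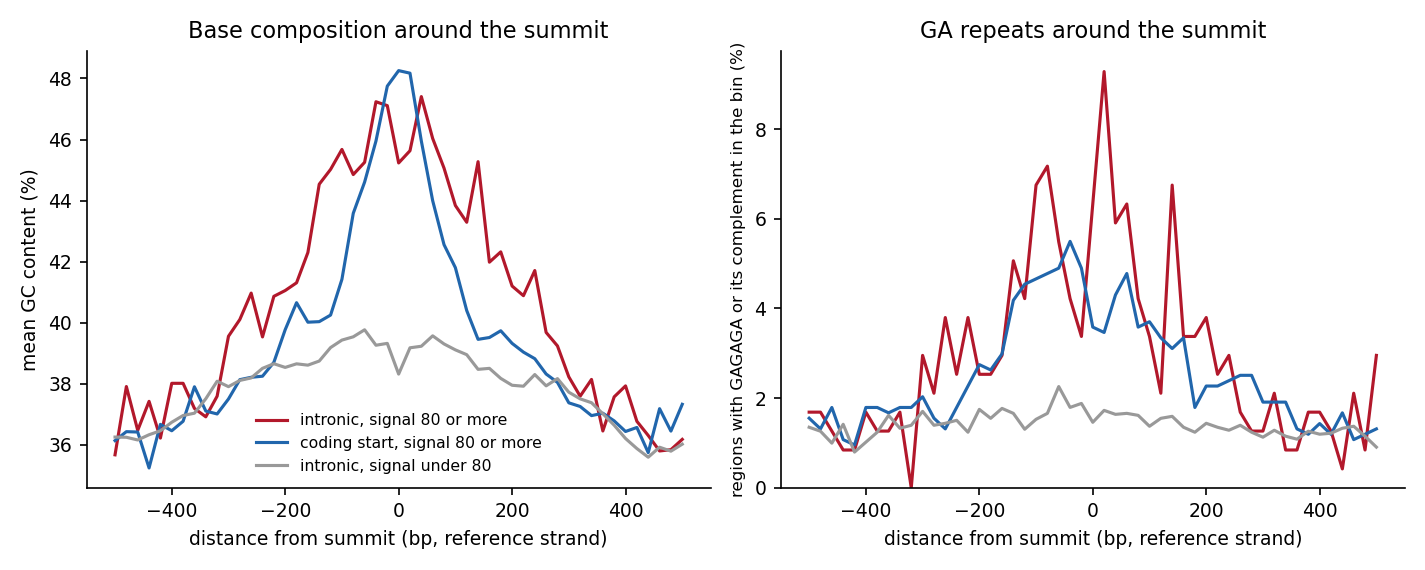
Mean GC content (left, %) and share of regions with GAGAGA or its complement in a 20 bp bin (right, %) by distance from the summit in bp, for the strong intronic, weaker intronic and strong coding-start regions. At the strong intronic regions both measures are highest within 100 bp of the summit, and at the weaker ones they change less with distance.

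Other 6-mers also differed. CACACA was in 60 windows (25.3% against 11.3% of the weaker ones) and CGTCTC in 44 (18.6% against 6.84%). ACGCAG was in 37 windows (15.6%), against 271 of the 4516 weaker ones. Strong regions near coding starts and between genes held CACACA at 21.1% and 25.8%, held CGTCTC at 19.4% and 20.7%, and held ACGCAG at 17.2% and 19.1%. At least 1 of the GAGAGA sequence, the CACACA sequence and the CGTCTC sequence was present in 125 windows (52.7% against 25.8%), and 27 held GAGAGA together with CGTCTC. The A run AAAAAA went the other way, with 34.2% against 58.8%. These 6-mers other than GAGAGA were picked after the count of all 6-mers. The windows with GAGAGA also lay in longer exon-free intervals (median 3083 bp, n = 78) than those without (1420 bp, n = 159). Their median pooled signals were 94.0 and 88.5, and 34.6% and 27.7% were strong in both replicates.

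Along the whole range of intronic signal, GAGAGA was between 11.2 and 12.7% in each class below a signal of 60 and higher in each class above it. It was in 12.4% of the 1190 regions under 40, 11.2% of the 913 from 50 to 60, 16.6% of the 734 from 60 to 80, 28.1% of the 167 from 80 to 100 and 44.3% of the 70 at 100 or more. CACACA went from 10.9% to 31.4% and CGTCTC from 7.98% to 30.0% between the lowest and the highest class. The median exon-free interval went from 949.5 to 3068.5 bp and the median GC content from 37.6 to 49.0% over the same classes.

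**Figure D5:**
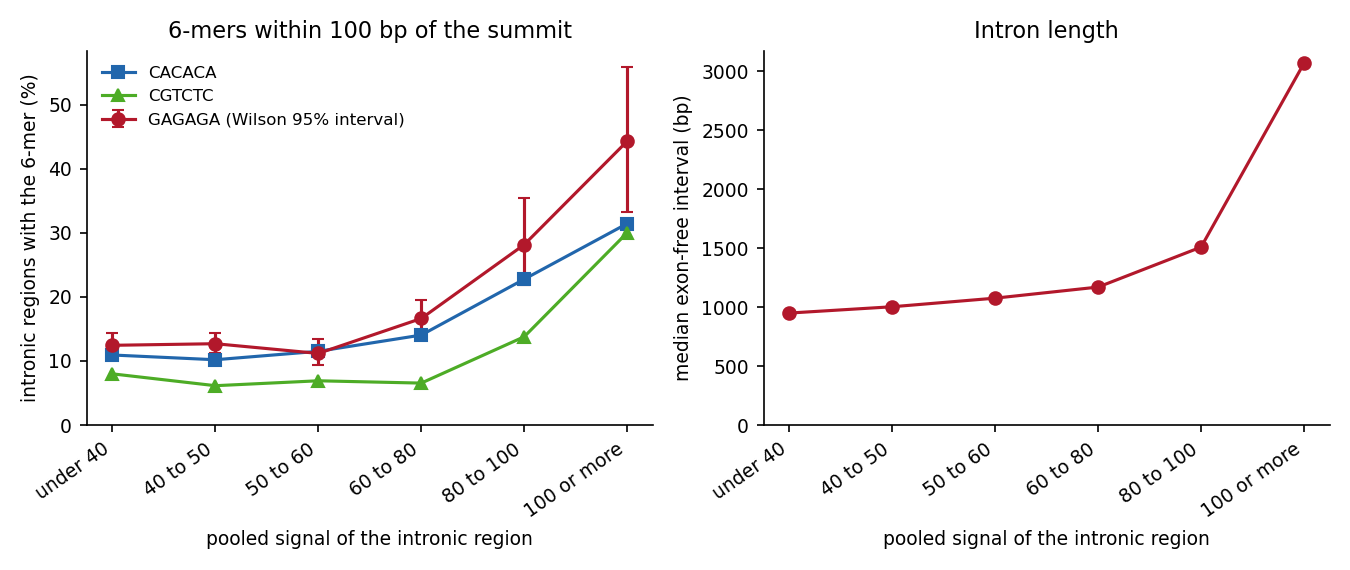
Left, share of intronic regions (y axis, %) with each of 3 6-mers within 100 bp of the summit, by class of pooled signal (x axis), with 95% Wilson intervals for GAGAGA. Right, median exon-free interval (bp) in the same classes. All 4 measures are highest at a signal of 100 or more, where GAGAGA reaches 44.3% and the interval 3068.5 bp.

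The B box core GTTCGANNC was rare by comparison, in 7 of the 237 windows (2.95%, interval 1.44 to 5.97). With the rule applied to replicate 1 alone, without replicate 2, the share was 1.28%. In the pooled data it was in 1.55% of the weaker windows, 1.48% of the flanking windows, 2.42% of all pooled windows and 23.05% of the windows of strong regions near RNA genes. The relaxed B box GTTCNANNC was in 7.17% of the 237 and in 6.42% of the weaker windows. It was in 7.38% of the flanking windows and 8.21% of all pooled windows, so the 237 showed no excess over these. The A box was in 6 windows (2.53% against 0.60%), and 2 windows held both an A box and a B box core (0.844% against 0.310%). These were the ncs-5 and hmr-1 windows, and only in ncs-5 did the A box come before the B box core on the same strand. In the hmr-1 window the A box, on the - strand, was at -83 bp from the summit. The B box core, matched on both strands, was at 38 and 39 bp, so on the - strand it came before the A box. The 11 windows with either box spanned the whole range of signal, from srt-52 (243.2), Y57G11C.22 (186.6) and mom-1 (184.7) to cfi-1 (84.7) and swip-10 (82.8). Between them came peli-1 (118.2), dyf-19 (110.9), vab-10 (103.4), hmr-1 (87.5), pqn-41 (87.3) and ncs-5 (85.3). The nearest tRNA, snoRNA or other RNA gene of the rule was 1865 to 25640 bp away from these 11. Annotated tRNA pseudogenes, which the rule did not remove, lay within 500 bp of 2 of the 237 summits, in dyf-19 and ncs-5. The rule did not remove piRNA genes either, and 21ur-10291 and 21ur-5629 lay within 500 bp of the Y57G11C.22 summit. Counting pseudogenes, piRNA, lincRNA and antisense RNA genes, 11 of the 237 summits had such a gene within 500 bp, against 121 of the 4516 weaker ones. The ncs-5 region had replicate signals of 25.9 and 63.0, and the dyf-19 region 37.4 and 66.5.

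Recognition sequences of other factors were counted in the same windows, against the weaker ones. The E box CACGTG was in 5.49% of the 237 windows against 4.07%, the E box CAGCTG in 1.27% against 4.03%, and the AP-1 sequence TGACTCA in 1.27% against 1.48%. The GATA sequences TGATAA and AGATAA were each in 20 of the 237 windows (8.44%), against 542 and 390 of the 4516 weaker ones. The FOXO sequence TGTTTAC was in 1.27% against 2.35%, the E2F sequence TTCCCGC in 5.91% against 3.70%, and the heat shock pattern GAANNTTC in 9.28% against 16.2%. The GC-rich sequence GGCGGG was in 27 windows against 6.24% of the weaker ones. All were counted on both strands within 100 bp of the summit, overlaps allowed, and a match describes letters only.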

How the data were processed

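ChIP-seq of GFP-tagged T23F11.4 was analysed from the authors' region lists for the pooled data, each of 2 replicates and the optimal set. The signal value of each region was deposited by the authors on assembly ce11, per the file headers. The aligner, the peak caller and the meaning of the signal scale were looked for in headers and labels and are not given there. The optimal set was made with IDR, which compares replicates, per the labels of the files. Replicate 1 listed 29994 nuclear regions and replicate 2 listed 25794, so depth per sample is unknown and intervals cover counting error only.

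Summits were placed on Ensembl release 115 gene models, with sequence and a second set of models from RefSeq WBcel235. Python 3.11.15, numpy 2.4.6, pandas 2.3.3 and scipy 1.17.1 were used. GC content was taken over 50 bp and 6-mers over 100 bp on each side of the summit. Shares are given with 95% Wilson intervals and no test was run: the design has 1 group, and 2 replicates give no contrast. The 6-mer count was run on simulated windows with GAGAGA planted in a share of them. That run checks the counting only and says nothing about the regions. Genes named are hosts of the 20 strongest regions, hosts of several regions, up to 4 per function list, regions at the edge of the rule and regions with a B box; genes beyond these were named after their values were seen. Of 563 names in the lists, 6 were not in the annotation. The regions, lists and 6-mers were chosen with earlier results of these data known.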

Additional observations from a re-analysis of the deposited data

How the results depend on the processing

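A signal minimum of 60 gave 971 regions and a minimum of 100 gave 70. The optimal share was then 3.19% and 44.3%, the share strong in both replicates 8.65% and 70.0%, the median GC content 42.6% and 49.0%, the GAGAGA share 20.6% and 44.3%, and the exon-free median 1368 and 3068.5 bp. The first-intron share was 31.4% at a minimum of 100. With summits over 2000 bp from coding starts there were 124 regions, 16.1% in a first intron, with a median GC content of 44.6% and an exon-free median of 2161.5 bp, and over 500 bp the exon-free median was 1720 bp. The share strong in both replicates was 22.8% with summits within 100 bp and 5.06% when strong meant as many regions as the optimal set holds. The first intron of any transcript held 31.6%. GC content was 45.5% at interval midpoints and 45.3% with 100 bp on each side. GAGAGA within 50 bp was at 19.8%. The exon-free median was 2332 bp with 1000 bp kept free of RNA genes.

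Alternatives chosen after seeing the data were the following, with all those for GAGAGA and the exon-free interval. The 71 regions strong in both replicates had 39.4% in the optimal set, 26.8% in a first intron, a median GC content of 48.5% and an exon-free median of 2759 bp. The exon-free median was 2496 bp without repeated 32-mers, 1916.5 bp with no stronger region within 1000 bp and 2241.5 bp with the RefSeq models.

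With either replicate left out, the positional rule on the strongest regions of the other's list gave 235 to 256 regions. Of these, 12.9 to 14.0% were in the optimal set and 28.5 to 33.2% strong in both replicates. Both of these shares still use the replicate left out. A first intron held 19.1 to 20.3% and X held 13.3 to 15.7%. GAGAGA was in 24.2 to 25.5% and a B box core in 1.28 to 2.73%. The median GC content was 44.6% and the exon-free median 1670 to 1695 bp. In these single-replicate choices GAGAGA and the exon-free interval were above the values of the weaker regions of the pooled list (13.0% and 1030 bp). The B box share was above its pooled weaker value of 1.55% in only 1 of the choices. Weaker regions of a single replicate were not set beside them. The X share stayed within its own 95% interval (10.8 to 19.8%) under the alternatives run, with the largest move to 18.6% at a minimum of 100. No paired analysis was possible because there is 1 group. Unknown depth and the control not analysed here limit all values.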
